A study of Mus musculus with 8 samples.

Results

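Cleavage-stage and oocyte genes were followed in mouse embryonic germ (EG) cells, the pluripotent cells that primordial germ cells (PGC) give rise to in culture, and in the cells on the way there. The set held 6 genes, Zscan4c, Obox1, Tdpoz3, Duxbl1, Patl2 and Nlrp4c, of 16390 different genes named on the arrays. They were found by symbol or older synonym, and each had 1 probe, with a value on all 8 arrays. The genes were chosen by their intensities on these same arrays, compared between EG and the other groups, so their levels are given as a description without a test. The set is named for EG cells, but 2 of its genes went against that name: Nlrp4c was lowest in EG cells, and Duxbl1 was as bright in E11.5 PGC as in EG cells.

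The 8 one-colour arrays made up 4 groups, each of 2 arrays: germ cells taken from E11.5 embryos (E11.5 PGC), their cultures on day 3 (Day3) and day 6 (Day6), and EG cells. All carried a Nanog-GFP reporter, and the design text names cell sorting as the way candidate pluripotent cells were purified. Day3, Day6 and EG carry 2i+A83 in their names, which stands for the MEK inhibitor PD325901 (1 µM), the GSK3 inhibitor CHIR99021 (3 µM) and the Activin and Nodal receptor inhibitor A83-01 (250 nM). The same medium (15% serum replacement, LIF and bFGF) and inhibitors are listed for every sample, E11.5 PGC included. The sources used here do not give strain, sex, pooling of embryos or the number of EG lines, so the spread between arrays of a group may be technical.

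An oocyte stocks RNA and protein for the first divisions of the embryo, and the cleavage-stage embryo then switches on a short-lived set of its own genes. Zscan4 genes belong to that set, and in mouse embryonic stem cell cultures they are known to be active in a small share of cells at a time. On arrays of bulk RNA, more cells with a transcript and more transcript per cell cannot be told apart.

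The promoters of genes whose level was highest in EG cells are shown first, with that of Nlrp4c for contrast. Each line gives the 250 bases before the RefSeq start, on the gene's strand, with CpG dinucleotides in capitals; the sequences are from RefSeq, build GRCm38.p6. Windows were found for 4 of the 6 genes, at chr7:11005495-11005744 (plus strand) for Zscan4c, chr7:15547007-15547256 (plus) for Obox1, chr2:122186190-122186439 (minus) for Patl2 and chr7:6044911-6045160 (plus) for Nlrp4c.
Zscan4c: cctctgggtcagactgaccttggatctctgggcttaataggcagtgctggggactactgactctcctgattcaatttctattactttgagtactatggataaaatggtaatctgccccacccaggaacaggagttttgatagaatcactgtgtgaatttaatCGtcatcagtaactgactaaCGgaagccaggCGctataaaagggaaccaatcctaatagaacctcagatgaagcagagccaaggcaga
Obox1: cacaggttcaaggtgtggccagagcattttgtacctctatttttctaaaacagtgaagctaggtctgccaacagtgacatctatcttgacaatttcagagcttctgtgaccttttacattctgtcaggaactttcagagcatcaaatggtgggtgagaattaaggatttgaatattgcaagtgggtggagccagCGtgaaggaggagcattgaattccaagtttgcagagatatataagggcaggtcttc
Patl2: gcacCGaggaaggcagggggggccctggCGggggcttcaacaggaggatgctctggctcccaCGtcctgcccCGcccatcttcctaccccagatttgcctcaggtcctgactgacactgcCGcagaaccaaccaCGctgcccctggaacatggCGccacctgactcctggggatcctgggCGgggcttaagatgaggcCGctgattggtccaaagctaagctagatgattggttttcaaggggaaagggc
Nlrp4c: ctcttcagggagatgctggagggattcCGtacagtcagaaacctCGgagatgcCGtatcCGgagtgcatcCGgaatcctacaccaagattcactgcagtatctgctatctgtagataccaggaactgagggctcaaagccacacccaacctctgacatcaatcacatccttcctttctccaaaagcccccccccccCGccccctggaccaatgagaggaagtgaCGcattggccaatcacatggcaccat
CpG sites numbered 3 in the Zscan4c window, 1 in Obox1, 9 in Patl2 and 7 in Nlrp4c, against a median of 6 (quartiles 2 and 16) over 32851 windows of the same length. Of the genes highest in EG cells, the 3 with a window (Tdpoz3 had none) thus differed in CpG content, and Nlrp4c lay between them. The letters TGATTCAAT, part of the site known for the mouse cleavage-stage factor Dux, stood in the Zscan4c window 184 bases before the start, and in 0.11% of all windows on either strand. This motif was chosen after the Zscan4c window had been seen. TATAAA stood 54 bases before the start of Zscan4c (12.4% of windows on either strand). Neither motif was found in the other 3 windows, and CACGTG (6.02% of windows) and GGCGGGA (9.75%) were found in none of the 4.

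Levels are given as intensity, scaled by the authors so that each array has a median near 20. A probe is called near the floor under 4.24, the 25th percentile of probe means, where sizes of differences are not exact.

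Zscan4c, a SCAN domain and zinc finger gene that acts in telomere maintenance, had the widest range of the 6. Zscan4c intensities stood at 2.79 and 1.71 on the E11.5 PGC arrays, 1.44 and 16.1 on those of Day3, 45.6 and 100.2 on those of Day6, and 1368 and 4256 on those of EG. Both E11.5 PGC arrays lay near the floor, Day6 lay above Day3 on both arrays, and EG lay above Day6 without overlap. The log2 difference was 10.11 ± 1.10 (standard error from limma, n = 2 arrays per group) for EG against E11.5 PGC, the highest of all 20761 probes compared (9.07 with a pseudocount of 2.275), and 5.16 ± 1.10 for EG against Day6. The RefSeq annotation holds 6 Zscan4 genes on one chromosome, of which Zscan4c alone had a named probe, so its signal may include near-identical copies.

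Obox1, one of the oocyte-specific homeobox genes, was near the floor until Day3. Obox1 intensities stood at 1.51 and 1.84 on the E11.5 PGC arrays, 3.55 and 3.18 on those of Day3, 4.61 and 19.7 on those of Day6, and 104 and 474 on those of EG. E11.5 PGC and Day3 were near the floor, 1 of the Day6 arrays stood above it clearly, and both EG arrays were higher than all others. Its log2 difference was 7.06 ± 0.84 for EG against E11.5 PGC (5.83 with the pseudocount) and 4.54 ± 0.84 against Day6 (n = 2 arrays per group).

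Tdpoz3, of a family with TRAF-type and POZ domains expressed in oocytes and early embryos, was above the floor in EG alone. Tdpoz3 intensities stood at 1.30 and 3.13 on the E11.5 PGC arrays, 3.24 and 3.25 on those of Day3, 3.00 and 3.33 on those of Day6, and 16.9 and 43.6 on those of EG. Every array outside EG lay near the floor, and the EG arrays were the only ones above it. The computed log2 difference of 3.75 ± 0.55 for EG against E11.5 PGC became 2.75 with the pseudocount. Against Day6 it was 3.10 ± 0.55.

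Patl2, which encodes an RNA-binding protein needed for oocyte maturation, was already bright on the third day. Patl2 intensities stood at 3.63 and 3.05 on the E11.5 PGC arrays, 57.1 and 54.2 on those of Day3, 30.7 and 17.9 on those of Day6, and 487 and 395 on those of EG. The groups did not overlap: EG was highest, Day3 lay above Day6, and E11.5 PGC was near the floor. Its log2 difference was 7.04 ± 0.33 for EG against E11.5 PGC (6.30 with the pseudocount), 4.23 ± 0.33 for EG against Day6, and 4.06 ± 0.33 for Day3 against E11.5 PGC.

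Duxbl1, a double homeobox gene related to Dux, had a level in both germ cells and EG cells and was dim between them. Duxbl1 intensities stood at 79.1 and 80.6 on the E11.5 PGC arrays, 5.17 and 5.39 on those of Day3, 5.03 and 9.11 on those of Day6, and 69.9 and 98.7 on those of EG. All culture arrays were just above the floor and below every E11.5 PGC and EG array, whose ranges overlapped. The log2 difference was 0.06 ± 0.36 for EG against E11.5 PGC, 3.97 ± 0.36 for EG against Day3 and 3.62 ± 0.36 for EG against Day6.

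Nlrp4c, of the NLRP family with several members expressed in oocytes, ran the other way. Nlrp4c intensities stood at 117 and 203 on the E11.5 PGC arrays, 64.4 and 136 on those of Day3, 8.94 and 60.6 on those of Day6, and 3.73 and 5.01 on those of EG. EG was the lowest group, with 1 array near the floor and the other just above it, while the E11.5 PGC and Day3 arrays overlapped and the Day6 arrays differed from each other by 6.78-fold. The log2 difference was -5.16 ± 0.85 for EG against E11.5 PGC (-4.56 with the pseudocount) and -2.43 ± 0.85 for EG against Day6.

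**Figure D1:**
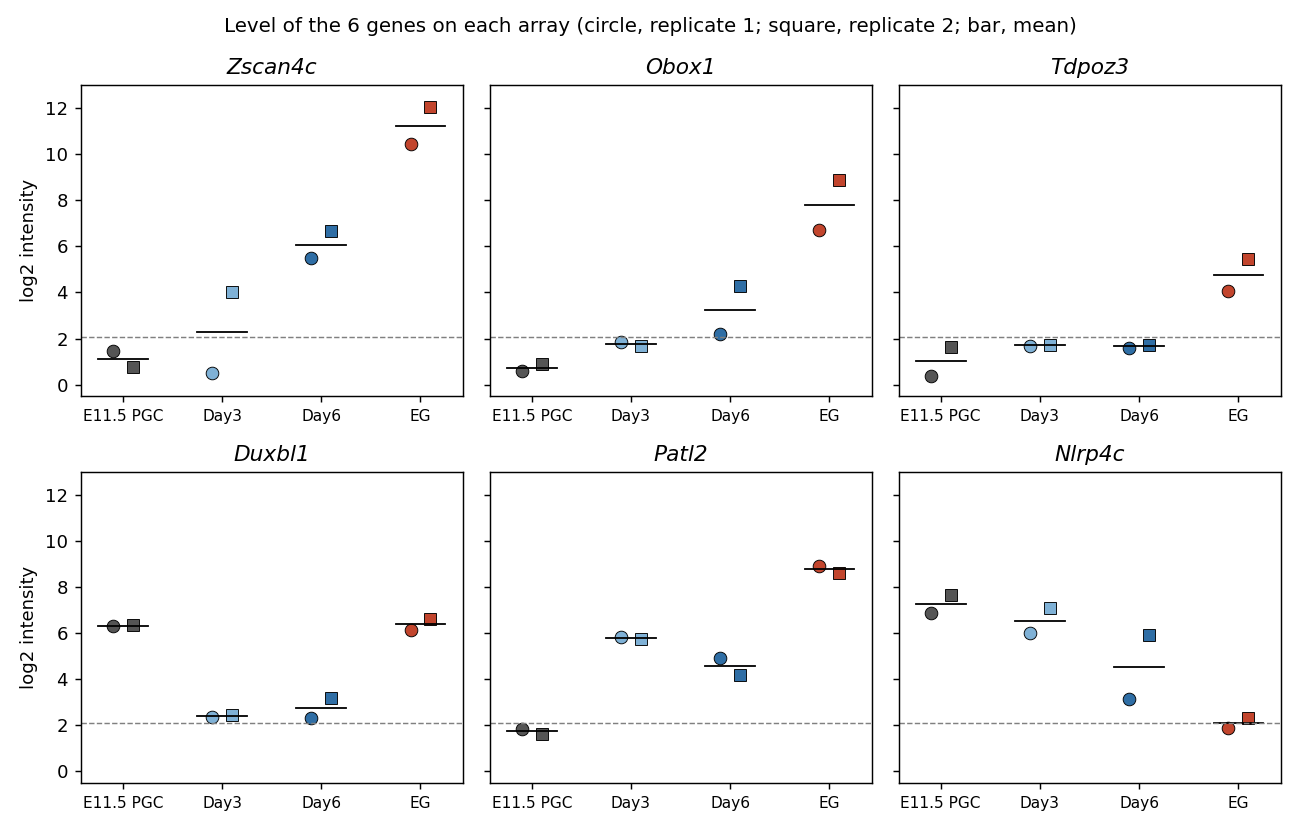
Log2 intensity of each gene (vertical axis) on each of the 8 arrays by group (horizontal axis); circles are replicate 1, squares replicate 2, bars group means, and the dashed line marks the floor intensity of 4.24. Zscan4c, Obox1, Tdpoz3 and Patl2 are highest in EG, Duxbl1 is high at both ends, and Nlrp4c is lowest in EG.

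Among the 19524 probes with a value on all arrays, 4 of the 6 genes (Zscan4c, Obox1, Tdpoz3 and Patl2) had both EG arrays above every other array, as had 9.13% of probes. With both E11.5 PGC arrays near the floor as well, these same 4 met the condition, as did 1.07% of probes (209 of them). Nlrp4c had both EG arrays under every other array, as had 10.9% of probes. The pattern of Duxbl1, with E11.5 PGC and EG arrays above all culture arrays, was shared by 3.21% of probes. These levels chose the genes, and nothing is read from the shares.

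The labels' descriptions name each array with 1 of 2 prefixes, called series A and B here. The arrays were of series A, with both EG arrays and replicate 1 of the other 3 groups, or of series B, with replicate 2 of those 3. The differences between Day6 and E11.5 PGC within series A and B were 4.03 and 5.87 for Zscan4c, 1.62 and 3.42 for Obox1, 3.08 and 2.56 for Patl2, -3.98 and -3.15 for Duxbl1, and -3.71 and -1.75 for Nlrp4c on the log2 scale. Those of Tdpoz3 were 1.21 and 0.09, near the floor throughout. For Day3 against E11.5 PGC, Zscan4c gave -0.95 in series A and 3.23 in series B, so its level on the third day rests on the series B array. Against the series A array of E11.5 PGC alone, EG was higher by 9.76 for Zscan4c, 7.21 for Obox1, 4.39 for Tdpoz3 and 6.92 for Patl2, with 0.07 for Duxbl1 and -4.76 for Nlrp4c.

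The EG arrays, both of series A, differed from each other in part of the set. EG replicate 2 over EG replicate 1 was 3.11-fold for Zscan4c, 4.54-fold for Obox1 and 2.59-fold for Tdpoz3. The ratio of Tdpoz3, the lowest of these 3, was reached or passed by 0.817% of 21419 probes. It was 1.41 for Duxbl1, 1.34 for Nlrp4c and 0.812 for Patl2. Zscan4c, Obox1 and Tdpoz3 were thus brighter on the same EG array, and Patl2 was not. Of 10 other cleavage-stage genes, 9 had a ratio above 1 (median 1.57, range 0.727 to 2.51), against 48.2% of all probes (median 0.99). Among them Tdpoz4 had a ratio of 2.51, Usp17lb 2.45, Obox6 2.39 and Arg2 2.04. Of 45 oocyte genes measured on both arrays, 20 had a ratio above 1 (median 0.967, range 0.504 to 2.425). With 1 array on each side, these ratios have no replicate check.

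**Figure D2:**
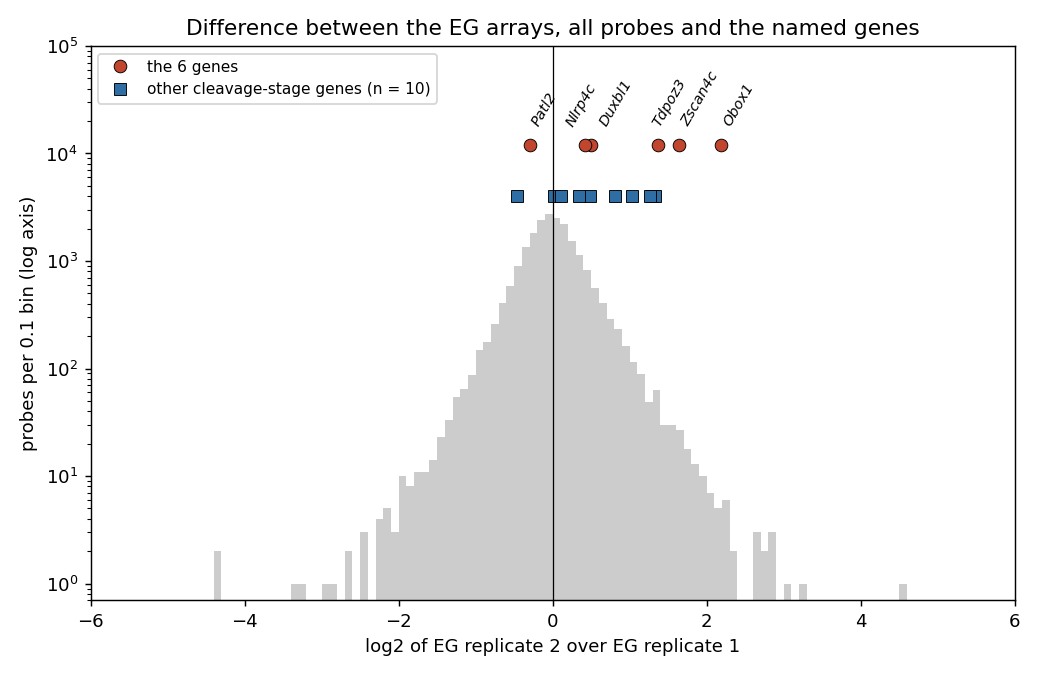
Log2 of EG replicate 2 over EG replicate 1 (horizontal axis) for all probes as a histogram with a log vertical axis, with the 6 genes as circles and 10 other cleavage-stage genes as squares placed above it. Zscan4c, Obox1 and Tdpoz3 sit right of all the other genes drawn, while Patl2 lies left of 0.

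Genes of like profile were sought by the root mean square difference, over the 8 arrays, of log2 intensity less its mean, with a missing value set to the lowest value of its array. That applied to Arntl2 on both EG arrays, A430060F13Rik on 1 Day3 array and Slc10a6 on 1 E11.5 PGC array, so their distances rest in part on values not measured. For Zscan4c the nearest of all named probes was Obox1, at 1.68, followed by Myo1f (1.84) and A430060F13Rik (1.84), with 27 probes nearer to it than Patl2 and 72 nearer than Tdpoz3. For Obox1 they were A430060F13Rik (0.927), A2m (1.03) and Slc10a6 (1.07), and 45 probes lay nearer to it than Zscan4c. Tdpoz3 was followed by Sprr2e (0.55), Prph (0.561) and Tmem88 (0.576), with all EG arrays of these 3 probes above their other arrays. For Duxbl1 they were Lefty1 (0.698), Trf (0.87) and Padi3 (0.881). Patl2 was nearest to Nupr1 (0.88), Fabp3 (0.946) and Kdelr3 (1.01). Nlrp4c was nearest to Dazl (0.445), which encodes an RNA-binding protein of germ cells, and then to Zfy1 (0.726) and Arntl2 (0.777). The set therefore held no single profile, and only Zscan4c had another of the 6 genes among its 3 nearest probes.

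**Figure D3:**
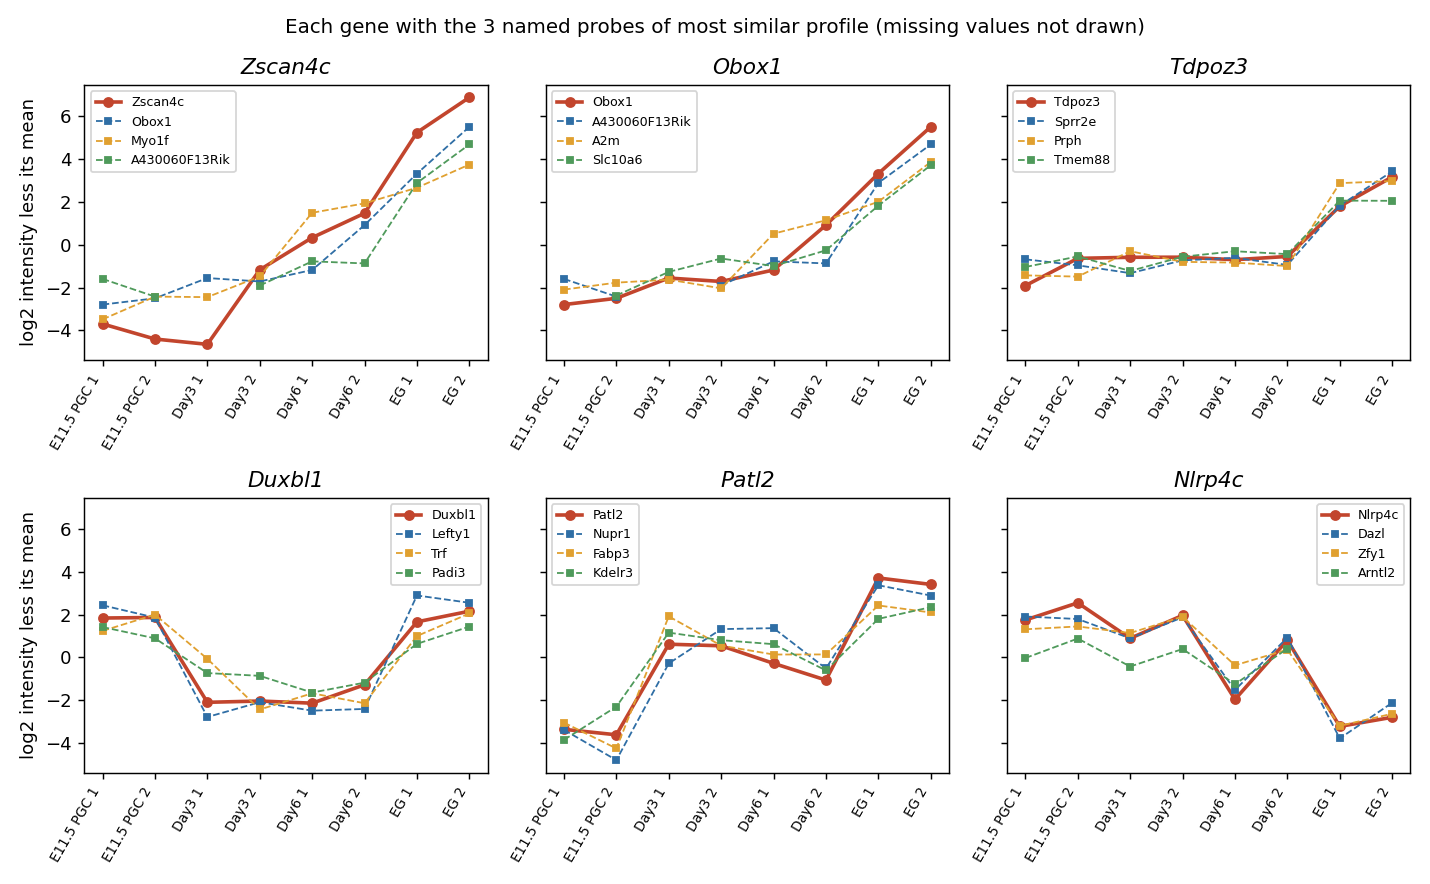
Log2 intensity less its mean over the arrays (vertical axis) on the 8 arrays (horizontal axis, in the order of derivation), for each gene as a solid line and its 3 nearest named probes as dashed lines. Dazl follows Nlrp4c down to EG, and Lefty1 follows Duxbl1 through its dip in culture.

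Other cleavage-stage genes came from a list of 56, of which 10 had a named probe. Tests used limma across all probes with Benjamini-Hochberg adjustment, at an adjusted p under 0.05. Against E11.5 PGC, 1 of 10 rose in EG (5.57% of all probes did) and 0 fell (5.61% of all probes), and 9 gave no call. The list median was 0.55 on the log2 scale, against -0.16 over all probes. The called gene was Usp17lb, a deubiquitinating enzyme gene. Its intensity was 15.7 and 38.4 in EG, against 6.60 and 4.37 in E11.5 PGC, with no overlap. It rose by 2.19 ± 0.47 (limma adjusted p = 0.0284, n = 2 arrays per group), and the call was lost on leaving out either E11.5 PGC array or EG replicate 2. Arg2 had 5.34 and 10.9 in EG, against 2.48 and 1.23 in E11.5 PGC (limma adjusted p = 0.0581). Its difference of 2.13 ± 0.54 was no call.

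Paralogs of the set did not all share its levels. A named probe was present for 2 of 6 Obox, 2 of 8 Tdpoz and 1 of 3 Duxbl genes in RefSeq. As for Zscan4c, their signals may include copies without a probe. Tdpoz4 had 11.2 and 28.1 in EG, against 12.6 and 16.9 in E11.5 PGC, with a log2 difference of 0.28 ± 0.56 and no call. Obox6 was brightest at Day6, at 142 and 57.2, against 15.5 and 15.1 in E11.5 PGC (2.55 ± 0.55, limma adjusted p = 0.0345), while in EG it had 26.9 and 64.4 and gave no call against either group. Cphx1, a homeobox gene that lies next to Duxbl1 among genes with a probe, had 14.5 and 16.8 at Day6, against 50.9 and 84.0 in E11.5 PGC. It fell by 2.07 ± 0.44 at Day6 (limma adjusted p = 0.0313), and had 49.9 and 36.3 in EG. The Day6 call of Cphx1 was lost without any 1 array of E11.5 PGC, Day6 or EG, and that of Obox6 without either E11.5 PGC array or Day6 replicate 1.

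The Nlrp4 family split. Nlrp4f had 30.3 and 33.9 in EG, against 1.24 and 2.48 in E11.5 PGC, and 37.5 and 20.6 at Day6. It rose by 4.19 ± 0.57 in EG (limma adjusted p = 0.00734) and by 3.99 ± 0.57 at Day6 (0.0085), where Nlrp4c lay lower than in E11.5 PGC. Its size is not exact, since E11.5 PGC lay near the floor. Nlrp4b and Nlrp4d each lacked a value on an array of EG or E11.5 PGC and were not tested between these groups. Nlrp4a and Nlrp4e are given for the family and were chosen after their values were seen. Nlrp4a rose by 2.22 ± 0.44 at Day6 (limma adjusted p = 0.0259), where it had 4.95 and 7.98, against 1.66 and 1.10 in E11.5 PGC. In EG it had 3.64 and 3.83, and gave no call. Every EG and E11.5 PGC array of Nlrp4a lay near the floor, so the sizes of its differences are not exact. Nlrp4e had 7.65 and 8.43 in EG, against 15.4 and 14.7 in E11.5 PGC, with no call (-0.91 ± 0.28, limma adjusted p = 0.0826). With the array series as a block, both were called in EG, with a limma adjusted p of 0.0335 for Nlrp4a (higher) and 0.0485 for Nlrp4e (lower). The Day6 call of Nlrp4a was lost without any 1 array of E11.5 PGC or EG or without Day6 replicate 2.

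Of 71 other oocyte genes 53 had a named probe and 40 were tested between EG and E11.5 PGC. Of these, 6 rose, 2 fell and 32 gave no call, beside 5.57% and 5.61% of all probes. The median was -0.25, against -0.16 over all probes. Ooep, which encodes a protein of the subcortical maternal complex under the surface of the egg, had 3344 and 3290 in EG, against 281 and 269 in E11.5 PGC, and rose by 3.59 ± 0.26 (limma adjusted p = 0.0013). Padi6, a member of the peptidylarginine deiminase family, had 61.1 and 64.1 in EG, against 10.2 and 9.59 in E11.5 PGC (2.66 ± 0.30, adjusted p = 0.00425). Khdc3, whose protein is known from the same complex as that of Ooep, had 163 and 175 in EG, against 47.4 and 25.7 in E11.5 PGC (2.27 ± 0.38, limma adjusted p = 0.0143). The groups of each did not overlap.

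Besides Nlrp4f, the others that rose were Npm2, an oocyte histone chaperone gene, by 2.20 ± 0.33, and Zp3, a gene of the egg coat, by 2.26 ± 0.34. Zp3 had its highest level at Day6, at 139 and 123, against 4.74 and 5.98 in E11.5 PGC, and 29.5 and 22.1 in EG. The genes that fell were Cpeb1, a regulator of polyadenylation in oocytes, by 4.60 ± 0.34 (limma adjusted p = 0.00139), and Dppa3, also called Stella, a maternal factor of the early embryo, by 3.64 ± 0.67 (0.0182). Cpeb1 had 22.5 and 19.7 in EG, against 512 and 508 in E11.5 PGC. Of these 8 calls, those of Ooep and Cpeb1 held in all 8 fits without 1 array. Without EG replicate 2 those 2 genes alone were called, and without other arrays up to 9 genes were. Zp3, Npm2 and Dppa3 lost the call without any 1 of the EG or E11.5 PGC arrays, Khdc3 without either EG array or E11.5 PGC replicate 2, and Nlrp4f without either EG array.

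The oocyte genes brightest in EG without a call were Tcl1, Cnot6l, Rfpl4, Sohlh2, Tcl1b2, Elavl2, Oosp1 and Oog4. Oosp1, an oocyte-secreted protein gene, had 89.9 and 80.8 in EG, against 98.6 and 77.1 in E11.5 PGC. Sohlh2, a helix-loop-helix factor of early oocytes, had 100.2 and 228 in EG, against 599 and 599 in E11.5 PGC, a difference of -1.99 ± 0.58 (limma adjusted p = 0.0729). In EG 18 of the 53 oocyte genes were near the floor or without a value on both arrays, as were 15 in E11.5 PGC.

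**Figure D4:**
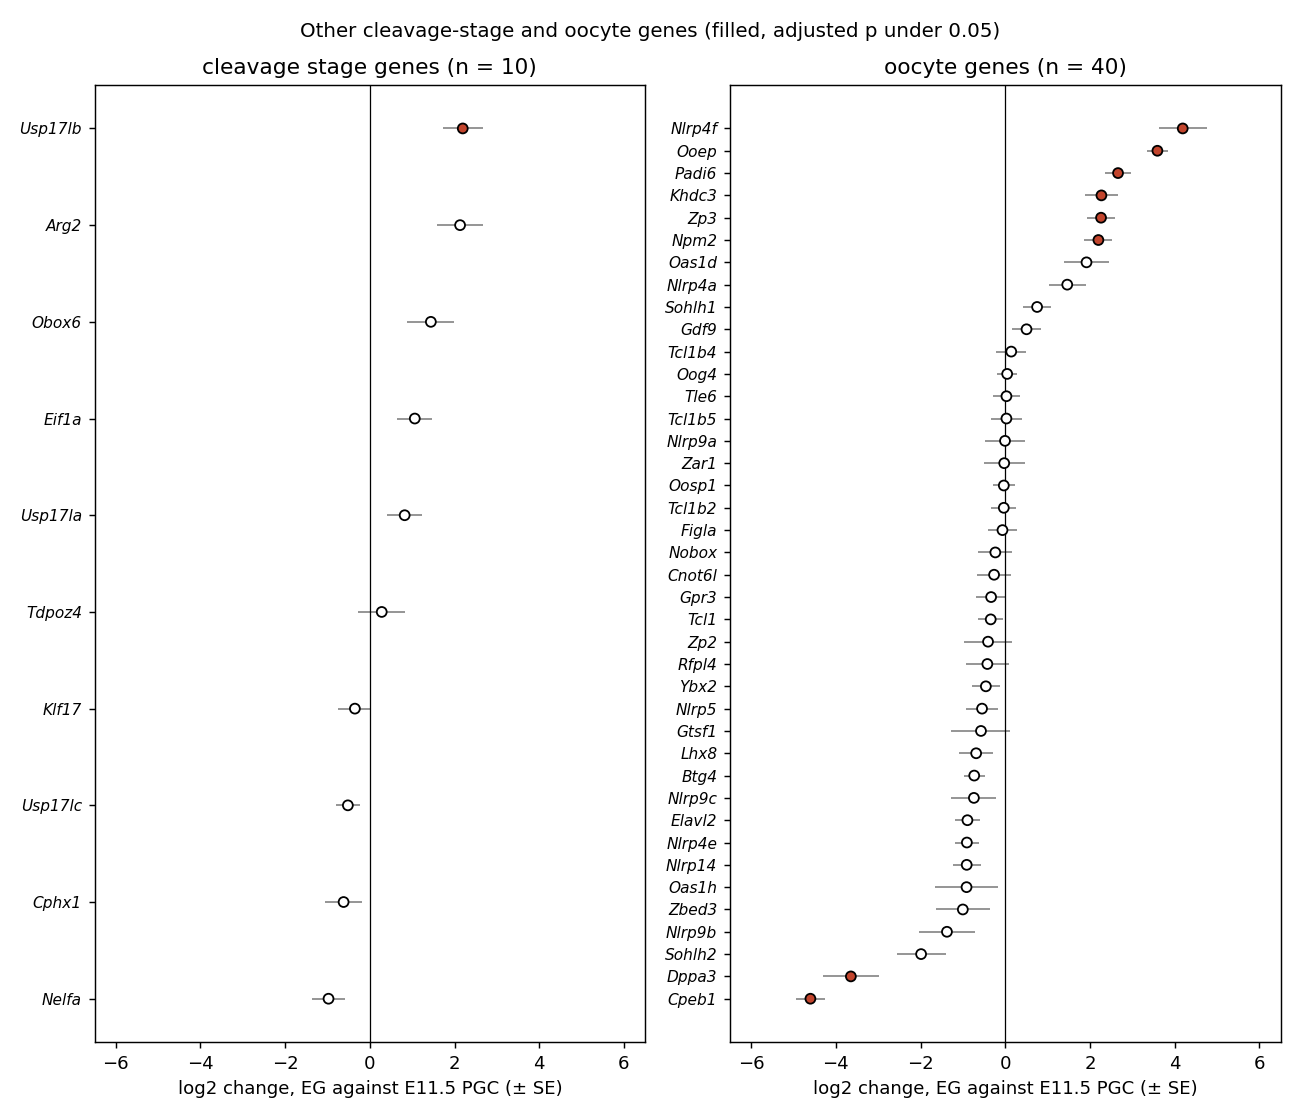
Log2 change of EG against E11.5 PGC (horizontal axis, with standard error) for the tested genes of the cleavage-stage list (left, 10) and the oocyte list (right, 40), with filled points for an adjusted p under 0.05. The oocyte panel has Nlrp4f, Ooep and Padi6 at the top and Cpeb1 and Dppa3 at the bottom.

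Between EG and Day3, 4 of 41 oocyte genes rose (1.05% of all probes) and 1 fell (0.37%): Ooep by 1.92 ± 0.26, Padi6 by 2.20 ± 0.30, Nlrp4f by 3.49 ± 0.57 and Npm2 by 1.96 ± 0.33, while Cpeb1 fell by 3.00 ± 0.34 (limma adjusted p = 0.0158). Each of the 4 higher calls was lost without any 1 array of EG, Day3 or E11.5 PGC, and that of Cpeb1 without any 1 of EG or Day3. None of the 9 cleavage-stage genes tested was called there by limma, though 2 had an unadjusted p under 0.05. Between EG and Day6, limma called 0 of 10 cleavage-stage and 0 of 40 oocyte genes, where 0.169% of all probes were called at the same adjusted threshold. At an unadjusted p under 0.05 the counts were 5 and 8. The share of all probes at the unadjusted threshold is not given here, so nothing is read from these counts or from the 2 against Day3.

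Part of the oocyte genes had already moved during culture. At Day3 against E11.5 PGC, 3 of 41 rose (1.33% of all probes): Khdc3 by 3.21 ± 0.38, Zp3 by 3.07 ± 0.34 and Ooep by 1.67 ± 0.26. There 0 fell, but the share of all probes that fell is not given here, so nothing is read from that count. At Day6, 7 of 42 rose (4.34% of all probes) and 3 fell (4.28%). Among them Zp3 rose by 4.62 ± 0.34 and Ooep by 2.95 ± 0.26, while Cpeb1 fell by 4.82 ± 0.34 and Dppa3 by 3.11 ± 0.67. With the array series as a block, 3 of 41 rose and 3 fell at Day3, where 4.34% of all probes rose and 4.0% fell. At Day6 the block gave 7 higher and 9 lower of 42, beside 9.5% and 14.3% of all probes. Without 1 array, 0 to 3 oocyte genes were called at Day3 and 3 to 8 at Day6. At Day3, Ooep lost the call without any 1 array of E11.5 PGC, Day3 or EG, Khdc3 without any 1 of E11.5 PGC or Day3, and Zp3 without either E11.5 PGC array or Day3 replicate 1. At Day6, Zp3, Ooep and Cpeb1 were called in all 8 such fits, and Dppa3 in 1 of 8.

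Regulators known from mouse embryonic stem cells to act on the cleavage-stage genes numbered 28, with 26 tested. In EG against E11.5 PGC 1 rose, 1 fell and 24 gave no call, beside 5.57% and 5.61% of all probes. The list median was -0.57, against -0.16 over all probes. Uhrf1, the partner of the maintenance DNA methyltransferase, had 1656 and 1434 in EG, against 166 and 81.3 in E11.5 PGC, and rose by 3.73 ± 0.49 (limma adjusted p = 0.00661). Smchd1, a chromatin protein of gene silencing, had 90.1 and 76.2 in EG, against 233 and 281 in E11.5 PGC, and fell by 1.63 ± 0.36 (limma adjusted p = 0.0308). Smchd1 lost the call without any 1 of the EG or E11.5 PGC arrays, and Uhrf1 without either EG array or E11.5 PGC replicate 2. The activators Dppa2 (432 and 581 in EG, against 268 and 274 in E11.5 PGC) and Dppa4 (2263 and 2108 in EG, against 3765 and 2992) gave no call, nor did the repressors Trim28 and Kdm1a. With the array series as a block 4 of 26 rose (Dppa2, Uhrf1, Tet1 and Tet2) and 4 fell (Setdb1, Chaf1a, Max and Smchd1). In that fit 9.24% of all probes rose and 14.4% fell. Of these genes, Uhrf1 and Smchd1 alone were also called without the block. Without it Tet1 differed by 0.37 ± 0.93 (limma adjusted p = 0.8435) and Tet2 by 1.40 ± 0.84 (0.336). For Tet1, E11.5 PGC replicate 2 lay above both EG arrays and replicate 1 below them, so its call rests on the block. Between EG and Day6 limma called 0 of 26, where 0.169% of all probes were called. An unadjusted p under 0.05 was found for 5, without a share of all probes to set beside it.

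The genes beside the set on the chromosome were also examined, taking the 5 nearest with a named probe on each side of each gene. Of 60 such neighbours, 51 were tested between EG and E11.5 PGC, of which 3 rose and 4 fell (median -0.23), near the shares of 5.57% and 5.61% of all probes. Between EG and Day6, 0 of 50 were called.

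Markers of the cell types were examined on the same arrays. In EG against E11.5 PGC, 6 of 10 pluripotency markers rose and 0 fell, and 6 of 11 germ cell markers fell and 0 rose, beside 5.57% of all probes that rose and 5.61% that fell. The summed intensity of 10 gonadal somatic markers was 55.1 to 63.2 in EG, 45.1 to 57.8 at Day6, 50.2 to 55.8 at Day3 and 79.3 to 92.1 in E11.5 PGC. That of 10 fibroblast or feeder markers was 361 to 1037 in EG, 157 to 2679 at Day6, 310 to 452 at Day3 and 108 to 153 in E11.5 PGC. S100a4 made up 808 of 1037 on EG replicate 1 and 190 of 361 on EG replicate 2. At Day6, S100a4 had 1335 and Thy1 747 on replicate 1, against 13.2 and 10.7 on replicate 2. Of the 10 fibroblast or feeder markers, 0 were called in EG against E11.5 PGC, with a median log2 change of 0.14. The summed intensity of the endothelial markers was 83.4 to 101.0 in EG, against 319 to 485 in E11.5 PGC. Pecam1 made up 184 of 319 on E11.5 PGC replicate 1 and 377 of 485 on E11.5 PGC replicate 2. Of the 5 tested, 2 fell (Pecam1 and Cldn5) and 0 rose. The summed intensity of the 4 blood markers was 225 to 286 in EG, against 61.1 to 65.6 in E11.5 PGC. Laptm5 made up 200 of 225 on EG replicate 1 and 261 of 286 on EG replicate 2, so the higher sum in EG rests on this gene. In EG against E11.5 PGC Laptm5 rose by 4.56 ± 0.43, Tyrobp fell by 1.84 ± 0.26, and the other 2 gave no call. S100a4, Thy1, Pecam1, Cldn5, Laptm5 and Tyrobp were named after their values were seen. The part of these markers in the levels above was not tested.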

How the data were processed

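Total RNA was amplified, labelled with Cy5 and hybridised to TORAY one-colour arrays, per the labels' protocols. The deposited table holds the authors' normalized intensity for 23473 probes, with array medians of 19.99 to 20.01; the sources used here do not give background correction, filters or software. Probes with a value numbered 21126 to 22404 per array and 19524 on all 8. The platform annotation gave 16631 probes 1 symbol and 6842 none. Of the symbols, 12622 were current, 3947 were updated through RefSeq synonyms (Zscan4c was Gm397, Duxbl1 1110051B16Rik, Patl2 4930424G05Rik and Nlrp4c Nalp4c) and 62 were kept.

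Here the deposited intensities were put on the log2 scale without an offset, missing values were left out, and all 4 groups were fitted together with limma 3.58.1 in R 4.3.3 (lmFit, eBayes, Benjamini-Hochberg adjustment over all probes, threshold 0.05, n = 2 arrays per group). The fit was tested on simulated data. The floor of 4.24 is the 25th percentile of probe mean intensity and the pseudocount of 2.275 the 10th. The precision is limited by 2 arrays per group, and p-values measure the spread between these samples, which may be technical. The genes followed, the gene lists and the motifs were chosen with earlier results of these data known. Genes named from the lists were those called in any EG comparison and up to 8 others with the highest mean intensity in EG, besides those said to be chosen otherwise. Alternatives were a pseudocount, quantile normalization, centring on probes measured on all arrays, missing values set to the lowest of the array, removal of the dimmest probes, trend and robust eBayes, array series or replicate number as a block, only the 4 arrays compared, and each array left out. Replicate numbers match the array series in E11.5 PGC, Day3 and Day6 but not in EG, so they were not used as pairs.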

Additional observations from a re-analysis of the deposited data

How the results depend on the processing

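The directions of EG against E11.5 PGC for Zscan4c, Obox1, Tdpoz3, Patl2 and Nlrp4c, and of EG against Day6 for all 6 genes, were kept under each alternative run; Duxbl1 against E11.5 PGC lay near 0. With the pseudocount the log2 differences for EG against E11.5 PGC were 9.07 for Zscan4c, 5.83 for Obox1, 2.75 for Tdpoz3, 6.30 for Patl2 and -4.56 for Nlrp4c, while a block for array series gave -4.38 for Nlrp4c. The counts of calls moved more, and the cause was not tested. For EG against E11.5 PGC, probes called were 4905 with the series block, 3951 with the replicate block and 3804 with 4 arrays only. Cleavage-stage calls were 2 after quantile normalization, with missing values at the lowest value or with 4 arrays, and 3 with either block, and oocyte calls 13 with the series block. With the series block Usp17lb and Eif1a were called higher and Nelfa lower, and the oocyte calls also held both directions. In that fit 9.24% of all probes were called higher and 14.4% lower. For EG against Day6, probes called were 151 with the pseudocount, 89 without the dimmest probes, 98 with trend and robust eBayes, 395 with the series block, 241 with the replicate block and 0 with 4 arrays; oocyte calls were 2, 1, 2, 2 and 2 under the first 5. For EG against Day3, probes called were 553 with the pseudocount, 451 with trend and robust eBayes, 1167 with the series block, 849 with the replicate block and 193 with 4 arrays. Cleavage-stage calls there were 1 under the pseudocount, without the dimmest probes, under trend and robust eBayes and under either block, and oocyte calls 1 with 4 arrays. For Day3 against E11.5 PGC, probes called were 672, 1725, 804 and 67 with the pseudocount, series block, replicate block and 4 arrays, and for Day6 against E11.5 PGC 4790, 2850 and 578 with the series block, replicate block and 4 arrays.

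Without 1 array, probes called ranged from 232 (without EG replicate 2) to 2809 for EG against E11.5 PGC, 0 to 6 for EG against Day6, 0 to 422 for EG against Day3, 4 to 555 for Day3 against E11.5 PGC and 430 to 1652 for Day6 against E11.5 PGC. Cleavage-stage calls ranged from 0 to 1 and oocyte calls from 2 to 9 for EG against E11.5 PGC, and oocyte calls from 0 to 6 for EG against Day3. The log2 differences of EG against E11.5 PGC ranged from 9.29 to 10.93 for Zscan4c, 5.97 to 8.15 for Obox1, 3.07 to 4.44 for Tdpoz3, -0.19 to 0.31 for Duxbl1, 6.89 to 7.19 for Patl2 and -5.56 to -4.76 for Nlrp4c. Those against Day6 ranged from 4.34 to 5.98 for Zscan4c, 3.45 to 5.63 for Obox1, 2.42 to 3.79 for Tdpoz3, 3.19 to 4.04 for Duxbl1, 3.84 to 4.62 for Patl2, and -3.81 (without Day6 replicate 1) to -1.05 (without Day6 replicate 2) for Nlrp4c. Deviations of same-numbered arrays correlated at 0.62, 0.547 and 0.694 among E11.5 PGC, Day3 and Day6, and at -0.025 to 0.061 with EG. In the first 3 groups the number and the array series coincide, so whether it marks the series or shared cells cannot be told apart.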
